A study of Mus musculus with 6 samples.

Results

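The genes described here are 9 components of the G1 control of the cell cycle, taken by symbol from the 13278 named genes of the deposited tables: the inhibitor genes Cdkn1a, Cdkn1b and Cdkn2c, the D cyclin genes Ccnd1, Ccnd2 and Ccnd3, the kinase genes Cdk4 and Cdk6, and the retinoblastoma gene Rb1. All 9 were present and all 9 could be read as counts, with no value at the upper limit of the deposited scale. They were followed through 6 libraries of single haematopoietic stem and progenitor cells from C57BL/6 mice, 497 cells in all. In the double-negative library, 76 cells came from the CD201-CD48- gates of HSC1 and HPC1. The 84 cells of the HSC1 library were CD201+CD48- or CD48+ HSC1, and the 82 cells of the HPC1 library were HPC1 of those same 2 gates. The MPP2-containing library of 80 cells pooled MPP2, both CD48+ gates (HSC1 and HPC1) and CD201-CD48- HPC1. The HSC2/MPP4 library of 89 cells pooled MPP4 with CD48+ HSC2. The 86 cells called CD48-negative HSC2 were HSC2 without CD48, either CD201+ or CD201-. The mice of the first 4 libraries were 8 to 10 weeks old and those of the other 2 were 8 weeks old. The tissue label was spleen for HSC1 and HPC1 and bone marrow for the other 4, and the molecule label was total RNA for the last 2 and polyA RNA for the first 4. No treatment or genetic change is given for any group. Each group is 1 library in which gates are pooled and cells cannot be traced to a gate, so gate, tissue label, age and library cannot be told apart. No difference below has a replicate or a test.

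Before a cell copies its DNA it passes a control point in G1. D cyclins bind the kinases CDK4 and CDK6, which phosphorylate the retinoblastoma protein and so release the E2F factors that switch on replication genes. INK4 inhibitors such as p18, the product of Cdkn2c, bind CDK4 and CDK6 directly. By contrast, p21 and p27, the products of Cdkn1a and Cdkn1b, bind cyclin-kinase complexes and inhibit mainly those of CDK2. Haematopoietic stem cells are known to be mostly quiescent, and progenitors to divide more often.

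Start-site windows were available for 6 of the 9 genes (RefSeq, GRCm38.p6; Cdkn1a, Cdkn2c and Ccnd3 with 2 starts each), and none for Ccnd1, Ccnd2 and Rb1. The 250 bases before 2 of these starts are shown, because Cdkn1a had the widest and Cdk4 the narrowest range of log2(CPM + 10) over the libraries among the 9 genes. The Cdkn1a window lies before the upstream start (chr17:29090729-29090978, plus strand), the capitals marking 2 copies of CATG with 6 bases of any kind between them, a spacing found in the p53 response element. The Cdk4 window is chr10:127063285-127063534 (plus strand), the capitals marking the E-box CACGTG, the motif that Myc is known to bind.
Cdkn1a: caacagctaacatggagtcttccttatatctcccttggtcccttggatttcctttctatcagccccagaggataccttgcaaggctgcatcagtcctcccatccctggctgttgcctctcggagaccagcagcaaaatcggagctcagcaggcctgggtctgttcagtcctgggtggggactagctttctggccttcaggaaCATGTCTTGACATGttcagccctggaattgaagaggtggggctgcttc
Cdk4: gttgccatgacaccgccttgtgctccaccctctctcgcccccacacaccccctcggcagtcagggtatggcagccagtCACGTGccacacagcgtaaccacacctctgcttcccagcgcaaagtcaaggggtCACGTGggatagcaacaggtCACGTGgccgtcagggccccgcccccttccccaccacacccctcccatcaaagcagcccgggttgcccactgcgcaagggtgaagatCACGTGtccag
The p53 pair, CATGTCTTGACATG at chr17:29090931-29090944, begins 48 bases before the upstream Cdkn1a start. Both strands were searched, and such a pair stood in 161 of all 32851 windows of this length (0.49%). It stood in no other window of the 6 genes, the downstream Cdkn1a start included. The Cdk4 window held 4 E-boxes, which begin 172, 118, 98 and 11 bases before the start, and the Cdk6 window held 1. An E-box stood in 6.02% of all windows. A match says only that these letters are there.

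The libraries differed in depth, with median counts per cell of 23540 in CD48-negative HSC2, 35977 in HSC2/MPP4 and 63092 to 145496 in the others, with library totals of 2778858 to 15019501 counts. A level is the sum of a gene's counts in a library per 1000000 counts of that library (CPM), with its exact 95% Poisson interval in parentheses. For shares of cells, every cell was first thinned at random to 10000 counts, and the interval is the exact Clopper-Pearson one. These intervals speak of counting error alone, and copies made by amplification need not be independent molecules. Stem-cell genes were present in every library (12 genes, summed level lowest at 928 CPM in the MPP2-containing library and highest at 2581 in CD48-negative HSC2), although Slamf1 was at 0 in CD48-negative HSC2 and Hoxb5 in HSC2/MPP4. The summed S phase list of 21 genes stood between 2092 and 2290 CPM in the CD48-negative HSC2, HSC1 and double-negative libraries and at 3236 in HPC1, 3670 in the MPP2-containing and 3938 in the HSC2/MPP4 library. The summed G2/M list of 20 genes ran from 1609 CPM in HSC1 and 1710 in CD48-negative HSC2 (64.3% of it in 1 cell) to 4556 in the MPP2-containing library. Genes of mature neutrophils (6 genes) summed to 308 to 6584 CPM and were carried by few cells, 1 of which held 98.9% of the HSC2/MPP4 sum and another 95.6% of that in CD48-negative HSC2. Erythroid genes (10 genes) summed to 437 to 4581 CPM, with 63.6% of the highest sum in 1 HPC1 cell, and macrophage and endothelial-stromal genes (4 read of each list) to under 65 CPM in every library.

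**Figure D1:**
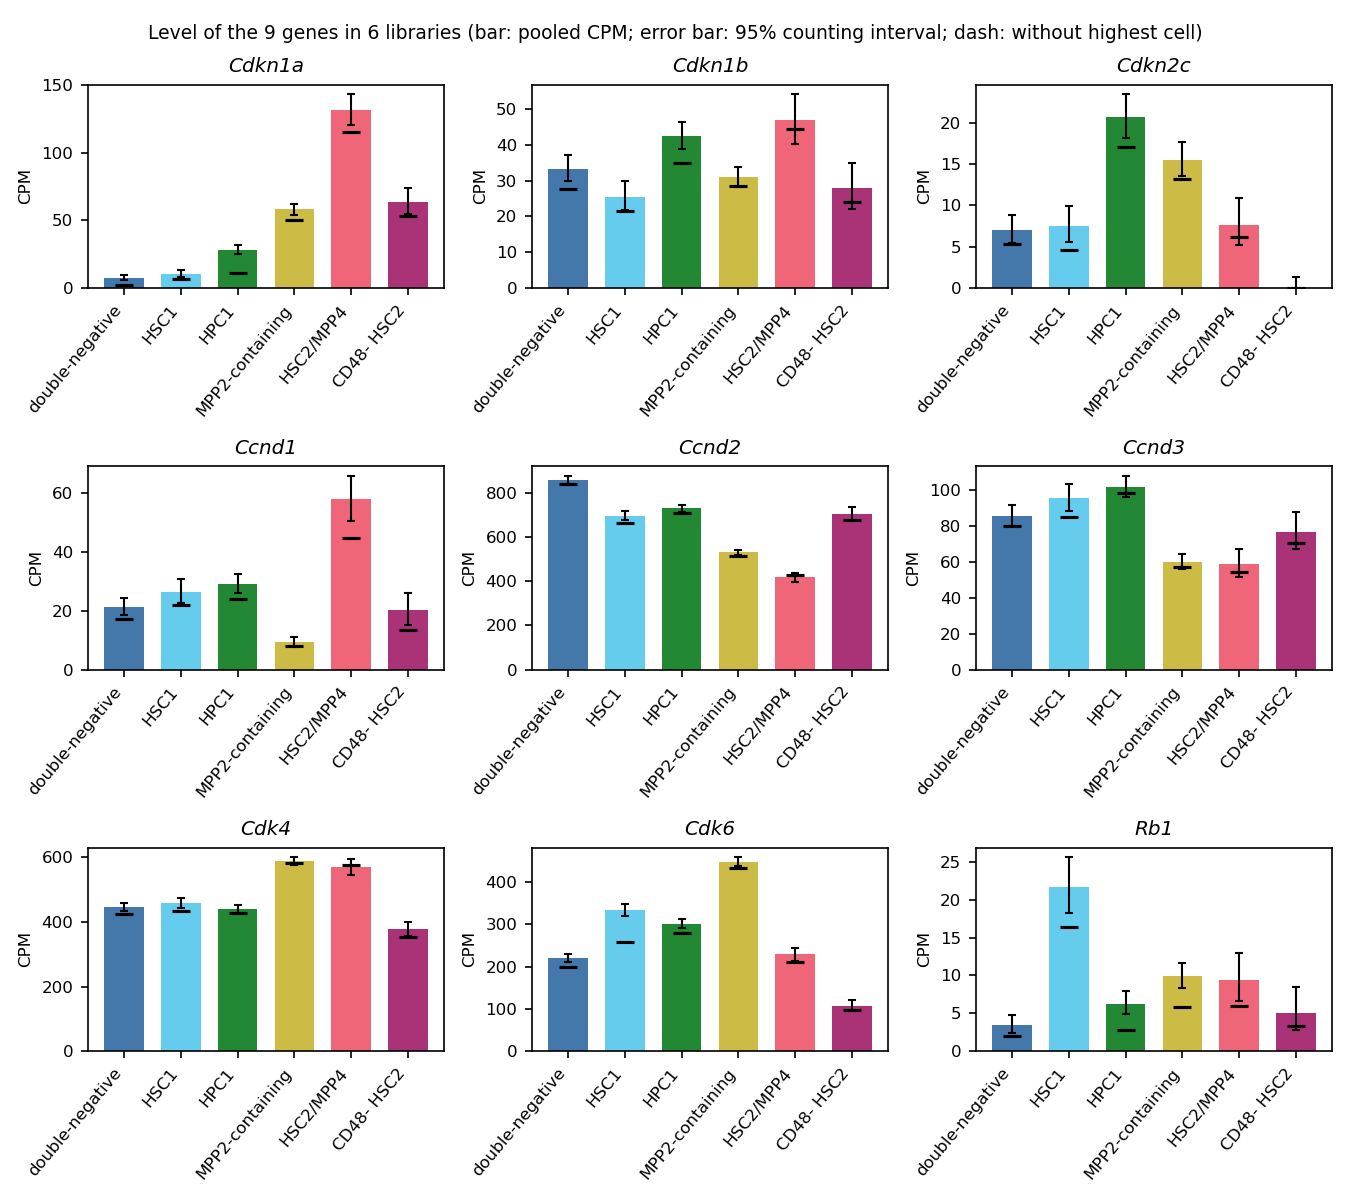
Pooled level in CPM (vertical axis, from 0) of each of the 9 genes in the 6 libraries (bars), with 95% counting intervals (error bars) and the level without the cell that holds most counts of the gene (dashes). Cdkn1a stood highest in HSC2/MPP4 at 131 CPM, Cdkn2c had no count in CD48-negative HSC2, and Cdk4 stayed between 378 and 588 CPM.

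Among the inhibitors, Cdkn1a, which encodes p21 and is a textbook target of p53, had the widest range of log2(CPM + 10) over the libraries. Its level was 7.38 CPM (5.79 to 9.29) in the double-negative, 10.3 (8.00 to 13.1) in HSC1, 28.4 (25.4 to 31.7) in HPC1, 58.1 (54.3 to 62.1) in the MPP2-containing, 131 (120.4 to 143) in HSC2/MPP4 and 63.7 (54.7 to 73.8) in CD48-negative HSC2. The 3 libraries with MPP2, MPP4 or HSC2 cells therefore stood above the 3 without them, and the intervals of the 2 sets did not overlap. Within that order, CD48-negative HSC2 and the MPP2-containing library did not differ beyond their intervals, nor did HSC1 and the double-negative library. Single cells carried much of the low values: 1 cell held 74.0% of the 73 double-negative counts and 1 cell 63.2% of the 326 HPC1 counts, and without these cells the levels were 1.98 and 10.8 CPM.

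The share of cells with a Cdkn1a count followed a like order. After thinning it was 2.67% in the double-negative library (2 of 75 cells, 0.325 to 9.30%), 5.0% in HSC1 (4 of 80, 1.38 to 12.3%) and 11.1% in HPC1 (9 of 81, 5.21 to 20.05%). It was 28.8% in the MPP2-containing (23 of 80, 19.2 to 39.95%), 38.3% in HSC2/MPP4 (31 of 81, 27.7 to 49.7%) and 24.2% in CD48-negative HSC2 (16 of 66, 14.5 to 36.4%). Cdkn1a was thus counted in a minority of thinned cells in all 6 libraries, and a few cells went far above the rest, up to 1485 CPM in HSC2/MPP4 and to 1105 among CD48-negative HSC2. Before thinning, the median HSC2/MPP4 cell held 26.8 CPM and the upper quartile 223, whereas the median was 0 in 4 of the 6 libraries.

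Cdkn1b, which encodes p27, varied little. Its level was 33.4 CPM (29.9 to 37.2) in the double-negative, 25.6 (21.8 to 29.8) in HSC1, 42.4 (38.8 to 46.4) in HPC1, 30.96 (28.2 to 33.9) in the MPP2-containing, 46.9 (40.4 to 54.2) in HSC2/MPP4 and 28.1 (22.2 to 35.03) in CD48-negative HSC2. In pooled level HSC2/MPP4 and HPC1 stood above the other 4, whose neighbours in order all had overlapping intervals. Of the HPC1 counts 20.7% lay in 1 cell, and without it the level was 34.9 CPM. The thinned share of cells ran from 13.8% in HSC1 to 32.1% in HSC2/MPP4. It was 23.5% in HPC1, whose interval (14.8 to 34.2%) overlapped those of all other libraries.

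Cdkn2c, the gene of p18, was the only one of the 9 without a count in a whole library. In CD48-negative HSC2, 0 counts were found among 2778858, and 3 counts would be 1.08 CPM. The level was 6.98 CPM (5.43 to 8.83) in the double-negative, 7.55 (5.59 to 9.98) in HSC1, 20.7 (18.1 to 23.5) in HPC1, 15.5 (13.6 to 17.6) in the MPP2-containing and 7.65 (5.16 to 10.9) in HSC2/MPP4. Against the limit of 3 counts in CD48-negative HSC2, the HPC1 level was 19.1-fold higher, the MPP2-containing level 14.4-fold and the HSC2/MPP4 level 7.08-fold. These folds leave out the counting error of the higher level, which in HSC2/MPP4 rests on 30 counts in 9 of 89 cells. After thinning, 0 of 66 CD48-negative HSC2 cells held a Cdkn2c count, which allows a share of up to 4.55% (3 of 66 cells; the Clopper-Pearson upper limit is 5.44%), and the other shares lay between 3.75% in HSC1 and 15% in the MPP2-containing library, with intervals that mostly overlap that limit. In share of cells, the absence of Cdkn2c from CD48-negative HSC2 was therefore distinguishable at this depth only from the MPP2-containing library, whose interval was 8.00 to 24.7%. None of the 3 inhibitors was counted in 77.5% of thinned HSC1 and 74.7% of double-negative cells, in 65.2% of CD48-negative HSC2 and 61.7% of HPC1 cells, and in 46.3% of MPP2-containing and 45.7% of HSC2/MPP4 cells. In HSC2/MPP4, 15 of 81 cells held 2 of them and 1 cell all 3, and in the other libraries 0 to 6 cells held 2.

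The 3 D cyclin genes each followed an order of their own. Ccnd2 was counted in nearly every cell and was highest in the double-negative library. Its level was 860 CPM (841 to 878) there, 696 (676 to 716) in HSC1, 730 (714 to 746) in HPC1, 531 (519 to 542) in the MPP2-containing, 418 (398 to 439) in HSC2/MPP4 and 705 (674 to 737) in CD48-negative HSC2. HPC1, CD48-negative HSC2 and HSC1 were neighbours with overlapping intervals, and the MPP2-containing and HSC2/MPP4 libraries were the lowest, apart from each other and from the rest. No single cell held more than 7.95% of a library's Ccnd2 counts, and the median cell ran likewise from 804 CPM in the double-negative to 389 in the HSC2/MPP4 library.

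Ccnd1 went the other way in HSC2/MPP4, where it was highest at 57.8 CPM (50.6 to 65.9). It stood at 29.1 (26.1 to 32.4) in HPC1, 26.5 (22.7 to 30.8) in HSC1, 21.2 (18.5 to 24.3) in the double-negative and 20.2 (15.2 to 26.2) in CD48-negative HSC2, each overlapping its neighbour in that order, and was lowest in the MPP2-containing library at 9.25 (7.78 to 10.9). It was counted in few cells before thinning, 24 of 89 in HSC2/MPP4 and 17 of 80 in the MPP2-containing library. HPC1 had 26 of 82 such cells and HSC1 had 25 of 84. Its thinned share was 23.5% in HSC2/MPP4 (14.8 to 34.2%), 18.5% in HPC1 (10.8 to 28.7%) and 17.5% in HSC1 (9.91 to 27.6%), with overlapping intervals. In the MPP2-containing library this share was 3.75% (0.780 to 10.6%). Ccnd3 was flatter, at 102 CPM (95.9 to 107.7) in HPC1, 95.2 (87.9 to 103.0) in HSC1, 85.4 (79.7 to 91.3) in the double-negative, 76.7 (66.7 to 87.7) among CD48-negative HSC2, 59.9 (56.1 to 64.0) among MPP2-containing cells and 58.9 (51.5 to 67.0) in HSC2/MPP4. The last 2 overlapped each other; the MPP2-containing library stood apart from the 4 higher ones, whereas the HSC2/MPP4 interval just reached that of CD48-negative HSC2. In pooled level, the MPP2-containing library was thus among the 2 lowest for all 3 D cyclins. HSC2/MPP4 was lowest for Ccnd2 and Ccnd3 and highest for Ccnd1 on the same measure. For Ccnd3 the median cell gave another order. It was lowest in CD48-negative HSC2 at 10.6 CPM, against 42.9 in HSC2/MPP4 and 43.3 in the MPP2-containing library. Thinned shares of Ccnd3 ran from 38.8% in the MPP2-containing library to 49.4% in HPC1, with 43.2% in HSC2/MPP4 and overlapping intervals.

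Of the kinase genes, Cdk4 had the narrowest range of log2(CPM + 10) over the libraries of the 9 members (0.63) and Cdk6 the second widest (1.97, against 3.02 for Cdkn1a). The added 10 CPM narrows the range of low genes. In plain CPM, Rb1 (3.44 to 21.7) and Ccnd1 (9.25 to 57.8) ranged by a larger fold than Cdk6 (107 to 448), and Cdkn2c started from 0. Cdk4 was at 446 CPM (433 to 460) in the double-negative, 459 (443 to 476) in HSC1, 440 (428 to 453) in HPC1, 588 (576 to 601) in the MPP2-containing, 570 (546 to 594) in HSC2/MPP4 and 378 (355 to 401.4) in CD48-negative HSC2. The 2 highest overlapped each other, the 3 in the middle likewise, and CD48-negative HSC2 stood below. Its thinned share of cells was 83.3% or more in all 6 libraries.

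Cdk6 was highest in the MPP2-containing library at 448 CPM (437 to 459), followed by HSC1 at 333 (319 to 348) and HPC1 at 302 (292 to 312). HSC2/MPP4 at 229 (214 to 244) and the double-negative library at 221 (212 to 230) overlapped, and CD48-negative HSC2 was lowest at 107 (95.4 to 120). In HSC1, 1 cell held 25.6% of the counts, and without it the level was 258 CPM, below that of HPC1 without its own highest cell (279). Cells of 1 library differed widely: in HSC1 the lower quartile was 17.4 CPM, the median 77.3 and the upper quartile 375, and in HPC1 these were 26.2, 110 and 408. By the median cell, HSC2/MPP4 (137 CPM) and the double-negative library (121) stood above HPC1 and HSC1, unlike the order of pooled levels. Their thinned shares were 74.1% and 65.3%, against 58.0% in HPC1 and 55.0% in HSC1, with intervals that overlap. In the MPP2-containing library all 80 cells held a Cdk6 count and the lower quartile was 189 CPM, whereas in CD48-negative HSC2 39 of 86 cells did and the median was 0. The thinned share was 91.3% (82.8 to 96.4%) in the former and 40.9% (29.0 to 53.7%) in the latter. Both kinases were counted in 72 of 80 thinned MPP2-containing cells, 58 of 81 HSC2/MPP4, 48 of 75 double-negative, 45 of 81 HPC1, 40 of 80 HSC1 and 24 of 66 CD48-negative HSC2 cells.

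**Figure D2:**
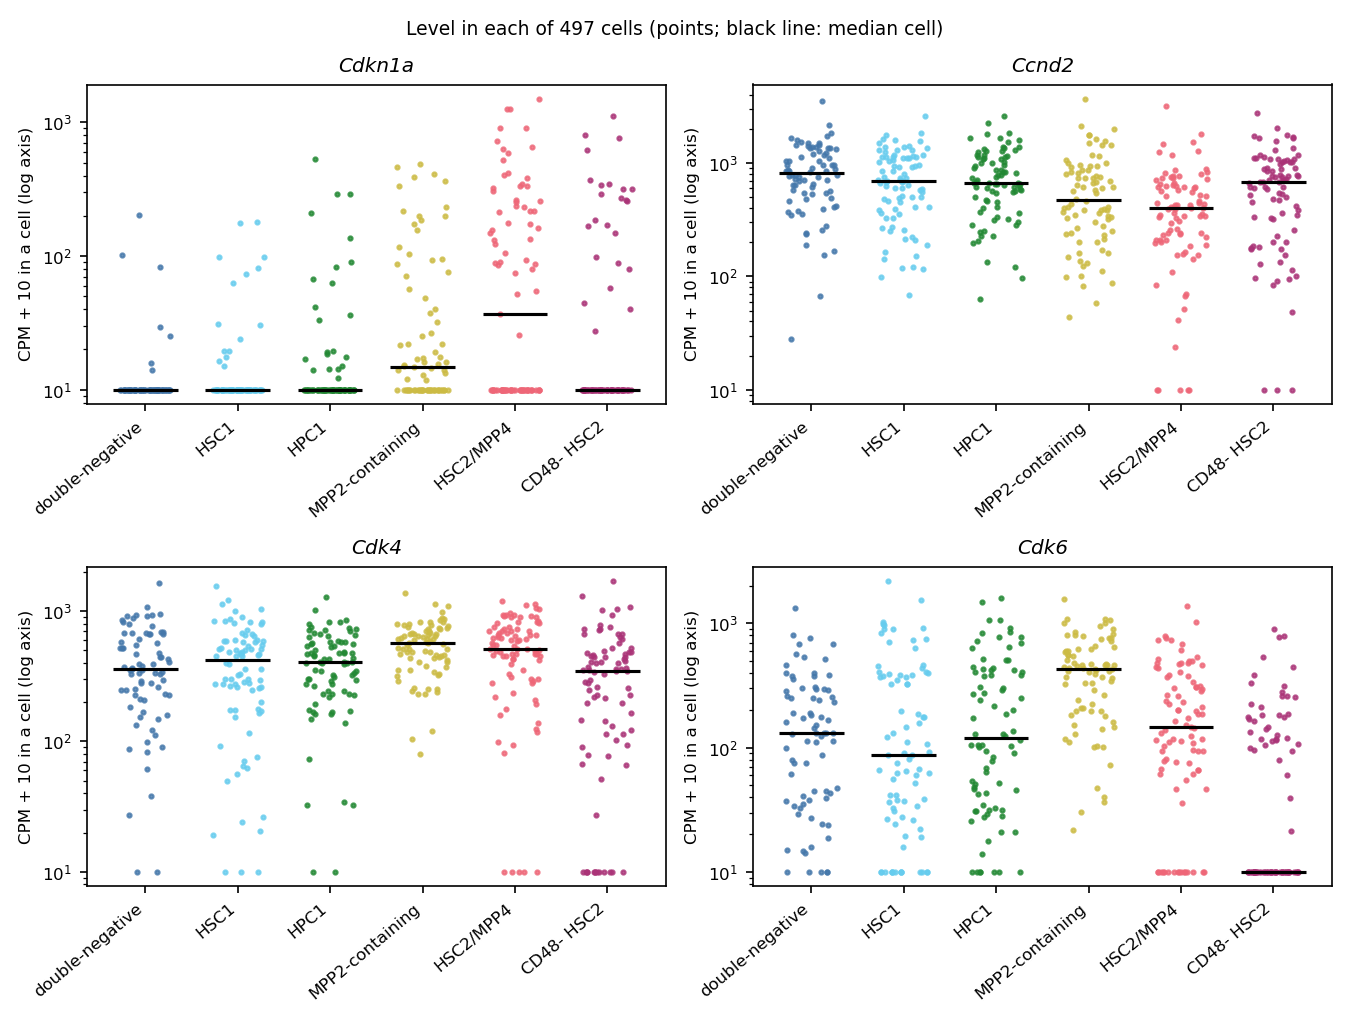
Level of Cdkn1a, Ccnd2, Cdk4 and Cdk6 in each of the 497 cells (points; vertical log axis, CPM + 10, so cells without a count sit at 10) by library, with the median cell (black line). Cdkn1a is counted in 7 of 76 double-negative cells and 46 of 89 HSC2/MPP4 cells, and the median cell holds no Cdk6 count in CD48-negative HSC2 and 418 CPM in the MPP2-containing library.

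Rb1, the gene of the retinoblastoma protein that the cyclin-kinase complexes act on, was scarcely counted. It reached 3.44 CPM (2.38 to 4.81) in the double-negative, 21.7 (18.3 to 25.6) in HSC1, 6.27 (4.91 to 7.90) in HPC1, 9.92 (8.39 to 11.6) in the MPP2-containing, 9.43 (6.64 to 13.0) in HSC2/MPP4 and 5.04 (2.75 to 8.45) in CD48-negative HSC2. HSC1 stood apart from the rest, which formed a run of overlapping neighbours. The HSC1 counts came from 13 of 84 cells, and its thinned share of 3.75% (3 of 80, 0.780 to 10.6%) had an interval overlapping that of the MPP2-containing library, 8.75% (7 of 80, 3.59 to 17.2%); thinned to 5000 counts, the order was the other way, 8.54% (7 of 82) and 5.0% (4 of 80). In the double-negative and CD48-negative HSC2 libraries no thinned cell held an Rb1 count, which allows shares of up to 4.0% and 4.55% by the same limit of 3 cells (Clopper-Pearson upper limits 4.80% and 5.44%).

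Libraries were then set against each other in 4 comparisons, with log2 ratios after adding 10 CPM to each side and 2-fold as the size that counts as a call. The added 10 CPM understates the differences of low genes, so plain ratios of CPM are given beside them, with exact intervals that cover counting error. The median log2 ratio over all 12050 genes read as counts lay between -0.04 and 0.00 in the 4 comparisons. The double-negative library serves in 2 of the comparisons and CD48-negative HSC2 in 2, so those comparisons share cells.

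HPC1 was set against HSC1, in which the same 2 gates were pooled. No member reached 2-fold, where 3.85% of all genes did (5.32% of the genes at 20 CPM or more in either library). The inhibitors leaned to HPC1 and Rb1 to HSC1. The log2 ratio was 0.92 for Cdkn1a (2.75-fold in plain CPM, 2.11 to 3.64), 0.80 for Cdkn2c (2.74-fold, 2.004 to 3.80), 0.56 for Cdkn1b (1.66-fold, 1.39 to 1.99) and -0.96 for Rb1, which in plain CPM was 3.46-fold higher in HSC1 (2.59 to 4.67). The D cyclins and kinases lay within -0.14 and 0.10, but Cdk6 turned from -0.14 to 0.70 without the deepest 10% of cells and to 0.35 with the mean log2 over cells, and Ccnd1 from 0.10 to -0.38 on thinned counts. With its highest cell left out of each library, the log2 ratio of Cdkn1a was 0.30, and without the deepest 10% of cells 0.17. Rb1 stood at -0.11 on thinned counts and passed 2-fold at -1.36 without the cells rich in neutrophil or erythroid genes (5 in HPC1, 0 in HSC1), where Cdkn1a stayed at 0.92. The summed S phase list was 3236 CPM in HPC1 and 2136 in HSC1, with 3 of 21 genes at least 2-fold higher, and the summed megakaryocyte-platelet list 3896 and 541, with 7 of 9. Of the 12 stem-cell genes 2 were at least 2-fold lower and 0 higher. The part of these lists in the members' values was not tested.

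Next, the MPP2-containing library was compared with the double-negative library. The CD201-CD48- HPC1 gate was pooled in both. Of the 9 members 1 was called, Cdkn1a, higher at a log2 ratio of 1.97, against 4.02% of all genes (5.96% at 20 CPM or more). In plain CPM it was 7.87-fold higher (6.19 to 10.1), and over the alternatives its log2 ratio lay between 1.19 and 2.82. Cdk6 stood just under the limit at 0.99 (2.03-fold, 1.93 to 2.13), with all other settings between 0.95 and 1.64. Cdk4 was also higher, at 0.39 (1.32-fold, 1.27 to 1.37). The 3 D cyclins were lower, Ccnd1 at -0.70 (2.29-fold in plain CPM, 1.84 to 2.87), Ccnd2 at -0.69 (1.62-fold, 1.57 to 1.67) and Ccnd3 at -0.45 (1.42-fold, 1.30 to 1.57), and they stayed below 0 under every alternative tried. Rb1 stood at 0.57 (2.88-fold, 1.98 to 4.32) and Cdkn2c at 0.59 (2.22-fold, 1.69 to 2.95), and 1 cell held 62 of the 149 Rb1 counts of the MPP2-containing library. The G2/M list summed to 4556 against 2256 CPM (10 of 20 genes at least 2-fold higher) and the S phase list to 3670 against 2290 (6 of 21). Of the 12 stem-cell genes 6 were at least 2-fold lower and 0 higher. The part of these lists in the members' ratios was not tested. All 6 mature neutrophil genes were at least 2-fold higher, 2687 against 785 CPM in sum, and without the cells rich in these or in erythroid genes (4 and 1) the log2 ratio of Cdkn1a was 1.93.

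HSC2/MPP4 was set against CD48-negative HSC2, the 2 libraries labelled total RNA. Of the 9 members 2 were called, both higher in HSC2/MPP4, against 5.17% of all genes (7.69% at 20 CPM or more). Ccnd1 had a log2 ratio of 1.17 (2.87-fold, 2.13 to 3.92) and Cdk6 of 1.03 (2.13-fold, 1.87 to 2.44). The call of Cdk6 held under every alternative on the log2 scale (1.02 to 1.72), whereas that of Ccnd1, 54 of whose 227 HSC2/MPP4 counts lay in 1 cell, was lost on thinned counts (0.70) and with the mean log2 over cells (0.59). Cdkn1a was close to the limit at 0.94 (2.06-fold, 1.74 to 2.46), Cdk4 stood at 0.58 and Cdkn1b at 0.58. With the mean log2 over cells Cdkn1a (1.11) and Cdk4 (1.06) passed 2-fold, and on thinned counts Rb1 did (1.45, from 0.37). Ccnd2 was lower in HSC2/MPP4, at -0.74, which is 1.69-fold (1.58 to 1.80), and stayed between -0.77 and -0.53 under the alternatives. Ccnd3 stood at -0.33 (1.302-fold lower, 1.076 to 1.575) but lay between -0.38 and 0.26 over the alternatives. The summed S phase list was 3938 CPM in HSC2/MPP4 against 2092, with 12 of its 21 genes at least 2-fold higher, and the summed granulocyte-monocyte list 8857 against 570, with 6 of 7 and 54.4% of the former in 1 cell; Ms4a3 was at 0 in CD48-negative HSC2. Of the 12 stem-cell genes 8 were at least 2-fold lower and 0 higher. The part of these lists in the members' ratios was not tested.

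CD48-negative HSC2 was set against the double-negative library, 2 libraries of cells without CD48 on their surface that differ in age and molecule labels and in depth. Of the 9 members 1 was called, Cdkn1a, higher at a log2 ratio of 2.08 (8.62-fold, 6.53 to 11.5), against 7.004% of all genes (10.1% at 20 CPM or more). Over the alternatives the log2 ratio lay between 1.01, with the mean log2 over cells, and 2.97, without the deepest 10% of cells. All 6 mature neutrophil genes were at least 2-fold higher in CD48-negative HSC2 (6584 against 785 CPM in sum), and without the cells rich in these or in erythroid genes (3 and 1) the log2 ratio of Cdkn1a was 2.16. Cdk6 was lower at -0.98 (2.06-fold, 1.82 to 2.33), with other settings between -1.57 and -0.84. Cdkn2c was 6.47-fold higher in the double-negative library against the limit of 3 counts, from 69 counts against 0. This fold leaves out the counting error of the higher level. These 69 came from 10 of 76 cells, with 73.9% of them in 3 cells. After thinning, 4 of 75 double-negative cells and 0 of 66 CD48-negative HSC2 cells held a count, and the intervals of these shares overlap. The remaining D cyclin and kinase values lay between -0.28 for Ccnd2 and -0.05 for Ccnd1, and over the alternatives Ccnd1 reached 0.84 on thinned counts and Cdk4, Ccnd3 and Ccnd2 reached -0.73, -0.70 and -0.61 with the mean log2 over cells. The S phase list summed to 2092 against 2290 CPM and the G2/M list to 1710 against 2256, of which 1 cell held 64.3% and 37.0%; 4 of the 20 G2/M genes had a log2 ratio above 0, and the median was -0.27. Of the 12 stem-cell genes 4 were at least 2-fold higher and 1 lower. The part of these lists in the members' ratios was not tested. Cdkn1a was thus called in both comparisons against the double-negative library, which share its 73 counts, 54 of them from 1 cell.

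**Figure D3:**
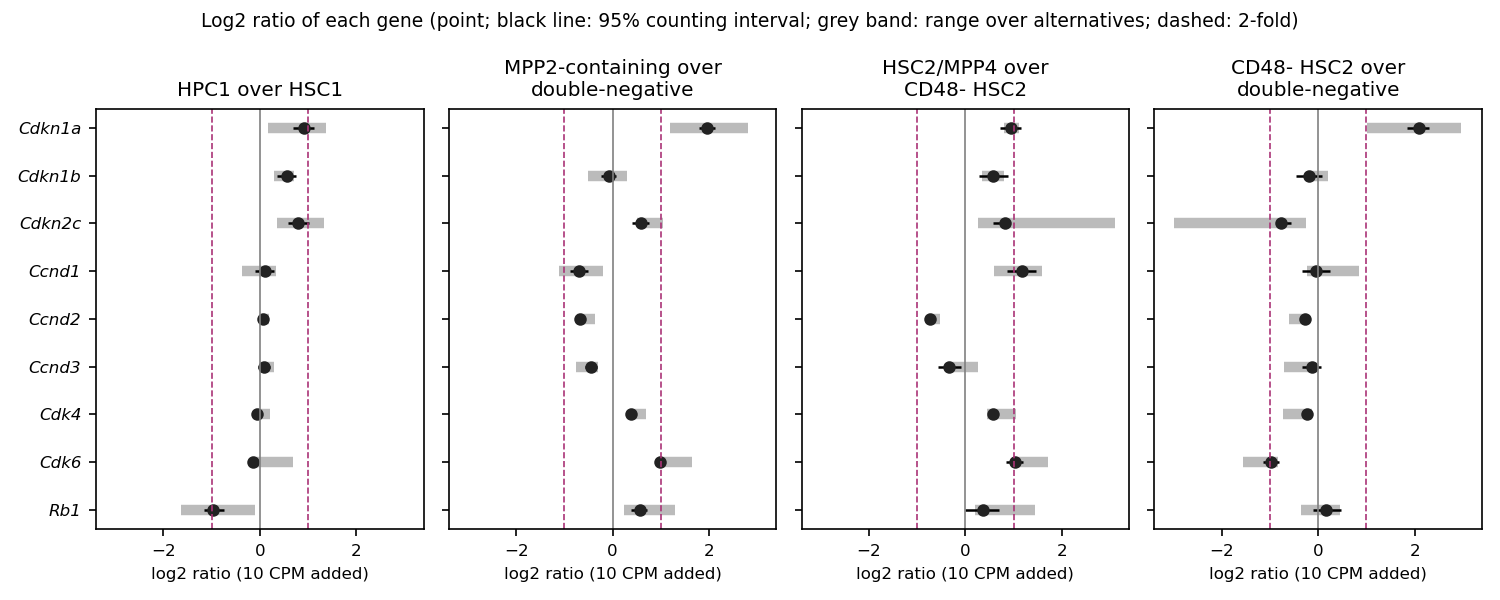
Log2 ratio of each gene, with 10 CPM added to each side (horizontal axis), in the 4 comparisons (panels); points are the ratios, black lines their 95% counting intervals, grey bands the range over the alternative settings and dashed lines mark 2-fold. Cdkn1a passes 2-fold in both comparisons with the double-negative library (1.97 and 2.08), and Ccnd1 (1.17) and Cdk6 (1.03) pass it in HSC2/MPP4 over CD48-negative HSC2.

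Within libraries, each member was related to the summed phase lists over cells, on counts thinned to 10000 and as Spearman's rho, which is a description over cells of 1 library and has no test. Cdk4 went with the S phase genes in all 6 libraries, with rho of 0.33 in the double-negative (75 cells), 0.45 in HSC1 (80), 0.43 in HPC1 (81), 0.45 in the MPP2-containing (80), 0.49 in HSC2/MPP4 (81) and 0.35 among CD48-negative HSC2 (66). Its rho with the G2/M genes lay between -0.14 and 0.14, and with the depth of a cell before thinning between -0.01 and 0.32. Ccnd2 had negative rho with the G2/M genes in 6 of 6 libraries (lowest, at -0.48, in the MPP2-containing library, and nearest to 0, at -0.06, in CD48-negative HSC2) and positive rho with the stem-cell genes in 6 of 6 (0.10 in HSC2/MPP4 to 0.40 in HSC1). With depth its rho was -0.32 to 0.11.

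For Cdk6 the values were spread more widely. Its rho with the S phase genes was 0.54 in HSC1 and 0.38 in HPC1, 0.16 in the double-negative library and 0.14 among CD48-negative HSC2, and -0.08 in the MPP2-containing library and -0.01 in HSC2/MPP4, and its rho with the stem-cell genes was -0.47 in both HSC1 and HPC1 and between -0.32 and 0.15 elsewhere. The highest rho of Cdk6 with G2/M genes was also in HSC1 (0.41). Cdkn1a, Cdkn1b, Cdkn2c, Ccnd1, Ccnd3 and Rb1 stayed between -0.27 and 0.26 with all 3 lists in every library that held a count of the gene after thinning (4 libraries for Rb1 and 5 for Cdkn2c). Many of these values rest on few cells with a count, such as 2 of 75 double-negative cells for Cdkn1a and 3 of 80 HSC1 cells for Rb1. Cells tied at 0 then limit the size of rho, so such small values cannot show that a relation is absent. Whether these rho values differ between libraries was not tested, and thinned cells share library, depth and the total to which all genes are scaled.

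**Figure D4:**
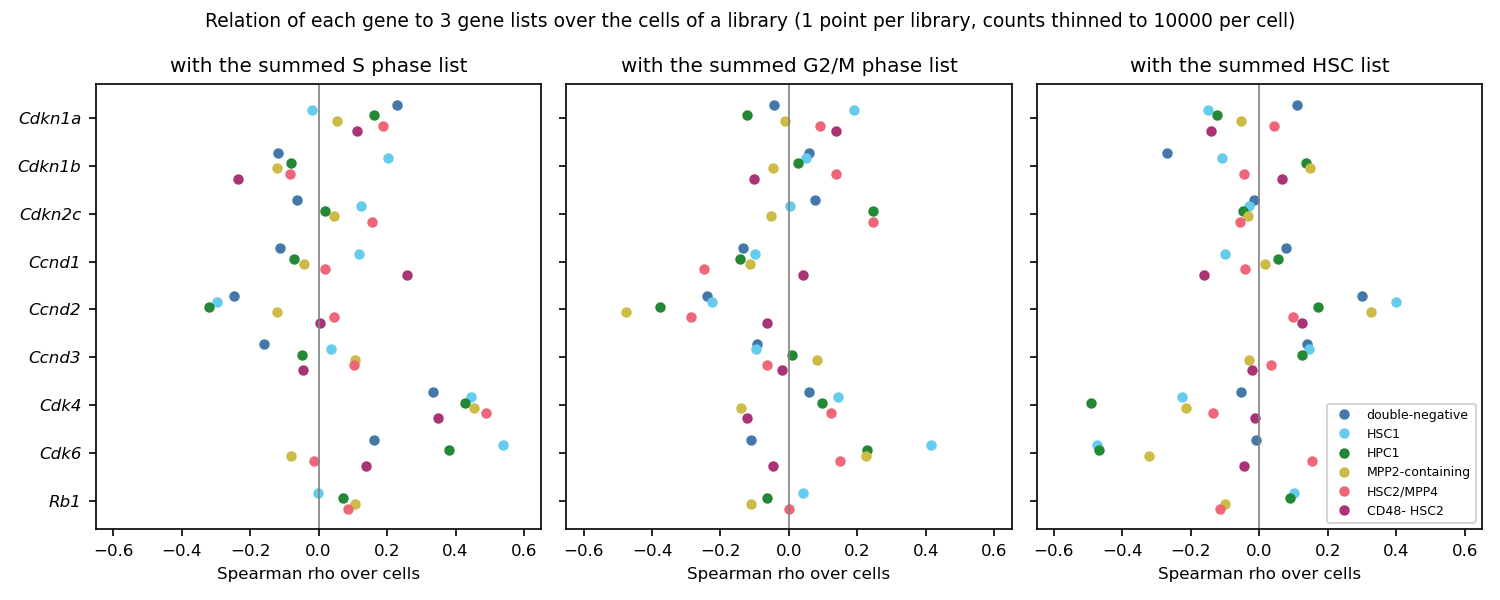
Spearman's rho over the cells of a library (horizontal axis) between each of the 9 genes and the summed S phase, G2/M and stem-cell lists (panels), 1 point per library. Cdk4 lies above 0 with S phase genes in all 6 libraries (0.33 to 0.49), and Ccnd2 lies below 0 with G2/M genes (-0.48 to -0.06) and above 0 with stem-cell genes (0.10 to 0.40).

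Other genes of the G1 pathway were read from a list of 36, of which 33 were in the tables; Cdkn2a, Cdkn2b and Cdk3 were not among them. Over all genes, 3.85, 4.02, 5.17 and 7.004% were at least 2-fold apart in the 4 comparisons, in the order given above. In HPC1 over HSC1, 2 of 33 were at least 2-fold higher and 1 lower, with a median log2 ratio of 0.10. The higher ones were E2f7, a repressor of the E2F family, at 18.0 CPM against 3.85, and Skp2, which targets p27 for degradation, at 32.2 against 10.5. The lower was E2f5 at 4.97 against 28.7. In the MPP2-containing over the double-negative library 1 of 33 was higher and 0 lower (median 0.34): E2f8, the companion of E2f7, at 30.6 CPM against 2.83.

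In HSC2/MPP4 over CD48-negative HSC2, 2 of 33 were higher and 1 lower (median 0.06). Tfdp1, the main dimer partner of E2F factors, stood at 124 CPM against 41.4, while its relative Tfdp2 went the other way at 43.6 against 112. Cks1b, the cofactor of Skp2, stood at 395 against 176. In CD48-negative HSC2 over the double-negative library 1 was higher and 1 lower (median -0.06), the phosphatase gene Cdc25a at 45.7 CPM against 13.6 and the kinase gene Dyrk1a at 7.92 against 29.1. The 3 highest of the list by mean level over the libraries were Skp1a, a subunit of the SCF ubiquitin ligase (256 CPM in HSC2/MPP4 to 558 in the MPP2-containing library), Myc (244 in HSC1 to 448 in HSC2/MPP4) and Cks1b (445 in the MPP2-containing library, 176 in CD48-negative HSC2). Cdkn1c, the gene of the third p21-like inhibitor, p57, had no count in HSC2/MPP4 (limit of 3 counts, 0.765 CPM) and 5.06 to 14.6 CPM in the other 5 libraries. It falls outside the naming rule and was chosen after its values were seen, as the only gene of this list at 0 in a library.

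Targets and regulators of p53 were read beside Cdkn1a. Of the 20 genes listed 19 could be read, and 0 to 2 of them were 2-fold apart in a comparison, where 3.85 to 7.004% of all genes were. Their summed level was 841 CPM in the double-negative, 989 in HSC1, 815 in HPC1, 913 in the MPP2-containing, 924 in HSC2/MPP4 and 900 among CD48-negative HSC2; Trp53 and Bax hold much of this sum, which says little of its other genes. In HPC1 over HSC1, 0 of 19 were 2-fold apart, where the median log2 ratio was -0.19. In the MPP2-containing over the double-negative library 1 was higher (median 0.05), Btg2, an antiproliferative gene, at 73.6 CPM against 23.5. In HSC2/MPP4 over CD48-negative HSC2 1 was higher (median 0.03), Phlda3 at 14.3 against 1.80, the latter from 1 cell. In CD48-negative HSC2 over the double-negative library 2 were higher (median 0.14), Sesn2 at 23.8 against 3.34 and Btg2 at 86.0 against 23.5. The 3 highest by mean level were Trp53, which encodes p53 itself (326 CPM in HPC1 to 395 in HSC1), Bax (118 in CD48-negative HSC2 to 152 in HPC1) and Btg2, which was highest in HSC1 at 130. Over cells, rho of Cdkn1a with the summed p53 list lay between -0.15 and 0.17 and was above 0 in 2 of 6 libraries. Only 2 (double-negative) to 31 (HSC2/MPP4) thinned cells of a library held a Cdkn1a count, so small rho cannot show that a relation is absent.

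For the 6 members whose levels ranged at least 2-fold, the genes most like them over the 6 libraries were sought by Pearson's r of log2(CPM + 10) among 1461 genes; over only 6 points, which share depth and labels, such r values are a description. Cdkn1a was nearest to Uap1 (r = 0.988), Strap (0.988) and Rab21 (0.973), and Cdkn2c to Siva1 (0.992), Tsfm (0.980) and Ppih (0.973). Ccnd2 was nearest to Hcfc1r1 (0.99), Slc50a1 (0.983) and Cd63 (0.982), and Cdk6 to Suz12 (0.996), Gskip (0.981) and Txnl4a (0.978). Ccnd1 was nearest to Ggta1 (0.958), Stt3b (0.948) and Ntpcr (0.945), and Rb1 to Mpv17l2 (0.959), Slk (0.860) and Slc43a3 (0.854). Suz12, for example, stood at 33.4 CPM in the double-negative, 43.9 in HSC1, 45.1 in HPC1, 59.0 in the MPP2-containing, 35.2 in HSC2/MPP4 and 17.6 among CD48-negative HSC2.

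On GRCm38 the members are protein-coding genes on 7 chromosomes. Cdkn1a lies at chr17:29090976-29100727, Cdkn1b at chr6:134920401-134925513, Ccnd3 at chr17:47505051-47599691, Cdk4 at chr10:127063534-127067920 and Cdk6 at chr5:3341485-3531008, all on the plus strand. Cdkn2c lies at chr4:109660876-109667189, Ccnd1 at chr7:144929931-144939925, Ccnd2 at chr6:127125162-127152193 and Rb1 at chr14:73183673-73325822, all on the minus strand. Exons of protein-coding genes on the opposite strand overlap those of Ccnd1 (LTO1), Ccnd3 (Bysl), Cdk4 (Tspan31) and Rb1 (Lpar6 and Rcbtb2), and other transcripts on the opposite strand overlap exons of Cdkn1a (AC167363.2), Ccnd2 (9330179D12Rik and Gm43126) and Cdk6 (Gm17590). Whether strand was used in counting is not given in the sources used here, so without it reads of such a pair cannot be told apart and the levels of these 7 genes are uncertain to that extent.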

How the data were processed

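Single sorted cells were lysed and copied by a modified Smart-seq2 protocol with enrichment of 3' ends and sequenced on an Illumina HiSeq, per the labels' protocols. Per the submitters' processing notes, TopHat and HTSeq were used with build mm10. Tool versions, the annotation, any cell filter and the normalization were not given in the sources used here. What the authors deposited are scores with mean 0 and SD 1 for each gene across the cells of the 3 tables, of which 0.076% lie at the upper limit of 10. The HSC2/MPP4 and CD48-negative HSC2 tables number their lines and name no genes. They were joined to the named table by line, after 6 blank lines were dropped, and the joint mean of the 9901 genes without a value at the limit was then within 1.1e-10 of 0.

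To get counts back, the scaling and the regression on 2 covariates were undone: for any 1 gene, the scores of cells with no count are a linear function of the covariates. With a scale factor of 10000, the totals of all 497 cells were whole within 0.001. Of 13278 genes 12050 were recovered, and 100.0000% of 2011356 values up to 50 were whole within 0.01. The rest had no plane (133) or too few cells with a count (1095). CPM use the whole cell total, of which recovered genes hold 55.4 to 83.3%. No 2 cells had identical counts. Only the recovery of counts was tested on simulated data. There 99.891% of counts below the upper limit came back exact, and 4 cell totals were wrong.

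No test was run, since each group is 1 library. Thinning left out 1, 4, 1, 0, 8 and 20 cells in the order in which the libraries are described. Cells were not filtered or clustered, and no doublets were called. The members and lists were chosen with earlier results of these data known. All 9 members are named. From the G1 pathway and p53 lists, genes at least 2-fold apart in a comparison and the 3 highest by mean level are named. For members ranging at least 2-fold, the 3 most similar genes are named, among genes counted in at least 25% of thinned cells of 1 library and ranging 2-fold themselves, without predicted, mitochondrial and ribosomal protein genes. Python 3.11.15, numpy 2.4.6 and scipy 1.17.1 were used.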

Additional observations from a re-analysis of the deposited data

How the results depend on the processing

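The number of members at least 2-fold apart depended on the scale for genes near the limit. In HPC1 over HSC1 it was 0, and became 3 with 1 CPM added in place of 10 (Cdkn1a, Cdkn2c and Rb1), 2 with CPM of the recovered genes' total, and 1 (Rb1) both without each gene's highest cell and without the cells rich in neutrophil or erythroid genes. In the MPP2-containing over the double-negative library it was 1, and became 5 with 1 CPM added, 3 on thinned counts, and 2 with the mean of the cells' own CPM, the mean log2 over cells, without each gene's highest cell and without the deepest 10% of cells; Cdk6 was the second gene in these last 4. In HSC2/MPP4 over CD48-negative HSC2 it was 2, and became 4 with 1 CPM added. The genes that passed in this comparison also changed. With the mean log2 over cells Cdkn1a and Cdk4 joined Cdk6, and Ccnd1 fell out. On thinned counts Rb1 passed and Ccnd1 did not. In CD48-negative HSC2 over the double-negative library the number was 1. It became 3 with 1 CPM added and 2 with the mean log2 over cells, with CPM of the recovered genes' total and without the cell highest in G2/M genes. The cause was not tested. Leaving out the neutrophil- or erythroid-rich cells, or the cell highest in G2/M genes, was chosen after seeing the data. No called member changed sign under any alternative, and the mean deposited scores, in SD units and so outside the log2 ranges, had the same sign for all 4 calls. Leaving out values at the upper limit of the deposited scale changed no member, as none had one. Depth limits the low genes: 24 of 54 shares of cells left their interval when cells were thinned to 5000 counts. The size of the ratios also moved with the setting. Of 36 member log2 ratios, 25 left their counting interval with the mean log2 over cells and 19 on thinned counts. Without the deepest 10% of cells 18 did, with the mean of the cells' own CPM 13, and under the other settings fewer. No paired analysis was possible because each group is 1 library, and no replicate could be left out.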
